A study of Mus musculus with 9 samples.

Results

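The non-collagen matrix and matrix assembly genes are a group of 43 genes for elastic fibers, matricellular proteins, proteoglycans, crosslinking enzymes and collagen processing, listed by symbol and measured in 9 mouse liver tumors. All 43 symbols were present among the 24421 symbols of each tumor's file. The groups were S7HP+Snail, S7HP and LHP, with 3 tumors each, all in C57BL/6 mice aged 11 weeks. Column names in the files tie S7HP to Smad7, which inhibits TGF-β signaling at its receptor, and LHP to Luc, by its name a luciferase control. Snail is a repressor of epithelial genes, encoded by Snai1. As the study is known apart from these files, H and P are an activated HRAS and a short hairpin RNA against p53, which all 3 groups then carry. Delivery there is by transposons injected into the tail vein, which reach mainly hepatocytes, and none of these letters is spelled out in the labels. Whether each tumor had its own mouse is not stated, so a p-value here weighs a difference against tumor-to-tumor spread, which may be partly technical. No uninjected liver was analysed here.

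Matrix around epithelial and stromal cells is laid down in steps. Fibronectin, fibrillins and fibulins form the scaffold on which elastin and collagens are arranged, small leucine-rich proteoglycans set fibril spacing, and matricellular proteins bind cells and growth factors with little structural role. Inside the cell, lysyl hydroxylases and the chaperone Serpinh1 prepare procollagen. Outside it, Bmp1, helped by Pcolce, removes its C-propeptide, and lysyl oxidases crosslink collagen and elastin. Stellate cells and fibroblasts are the main producers of this matrix in liver, hepatocytes make plasma fibronectin, and TGF-β is a known inducer of many of these genes.

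Values are log2 of a quantile-normalized 3′ read count plus 1, called log2 values here, and lists of 3 values follow tumors 13, 14 and 15 for S7HP+Snail, 9, 11 and 12 for S7HP, and 2, 3 and 6 for LHP. Each library totaled about 19910797 normalized counts, and real depth is not preserved. The coarsest steps among low values were in S7HP tumor 11, where the third value above 0 was 2.64, against 1.22 to 2.12 in the other libraries. The second principal component set S7HP+Snail tumor 14 apart, at -118.1, against -31.3 and -25.9 for tumors 13 and 15. Smad7 log2 values were 7.31, 6.77 and 8.002 in S7HP+Snail, 6.46, 6.81 and 6.28 in S7HP, and 10.23, 10.50 and 9.49 in LHP, and Snai1 log2 values were 8.53, 7.31 and 8.47 in S7HP+Snail, 6.17, 6.34 and 6.92 in S7HP, and 9.93, 11.16 and 10.99 in LHP. Neither gene was highest in the tumors named for it, and a 3′ tag detects a construct only if it carries the gene's own 3′ end, so the values are no check on the labelled groups. The liver markers Alb, Ttr and Apoa1 were above a log2 value of 11 in 9 of 9 libraries.

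Many matrix genes were lower in S7HP tumors than in LHP tumors, with at least 3 called lower in each role. Of 43 genes, 22 were called lower, 1 was called higher, 18 were not called and 2 (Fmod and Ogn) were too low to test (limma across 14215 genes, called at a Benjamini-Hochberg, BH, adjusted p under 0.05). Over all 14215 genes, 9.54% were called lower and 9.47% higher. In all, 19% of genes were called in either direction. The median log2 difference was -1.71 over the 41 genes tested and 0.02 over all genes tested. The 3 values of S7HP lay wholly below those of LHP for 29 of 43 genes and wholly above for 1, against 21.3% and 20.9% of all genes. Without LHP tumor 3 or 6 the 22 lower calls became 12 each.

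With Snail added to S7HP, 6 of 43 matrix genes were higher than in S7HP and 0 were lower by limma, with 0 lower and 18 higher at an unadjusted p under 0.05. The background was 1.01% of all genes called higher and 1.29% lower, 2.3% in either direction. At an unadjusted p under 0.05 it was 8.53% of all genes higher and 9.29% lower. The 6 were Serpinh1, Pcolce, Vcan, Tgfbi, Thbs1 and Crispld2, 5 of which were among the 22 lower in S7HP than LHP. The median log2 difference was 0.96 over the 41 genes tested, falling to 0.55 without S7HP tumor 11, and -0.02 over all genes. Groups did not overlap for 14 of 43 genes, all higher in S7HP+Snail, against 9.53% of all genes higher and 11% lower. The 6 calls became 2 without S7HP tumor 11 and 3 without S7HP tumor 12.

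Set against LHP directly, S7HP+Snail tumors had 6 lower and 1 higher of 43 genes, with 34 not called, where 3.87% of all genes were called lower and 3.35% higher, 7.22% in either direction (limma, BH adjusted p under 0.05). The 6 were Lox, Loxl1, Loxl3, Plod2, Fbln2 and Bgn, and all of them were also lower in S7HP than LHP. The higher gene was Efemp1. The other 16 genes lower in S7HP were not called between S7HP+Snail and LHP, which does not show that they were equal. The median log2 difference was -0.71 over the 41 genes tested and 0.00 over all genes. Groups did not overlap for 14 of 43 genes lower and 3 higher, against 15.8% and 14.7% of all genes. The 6 lower calls became 1 without any 1 LHP tumor, 2 without S7HP+Snail tumor 15 and 3 without S7HP tumor 12, and the higher call was lost without LHP tumor 2 or 6. These 3 comparisons share tumor groups and are not independent of each other.

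**Figure D1:**
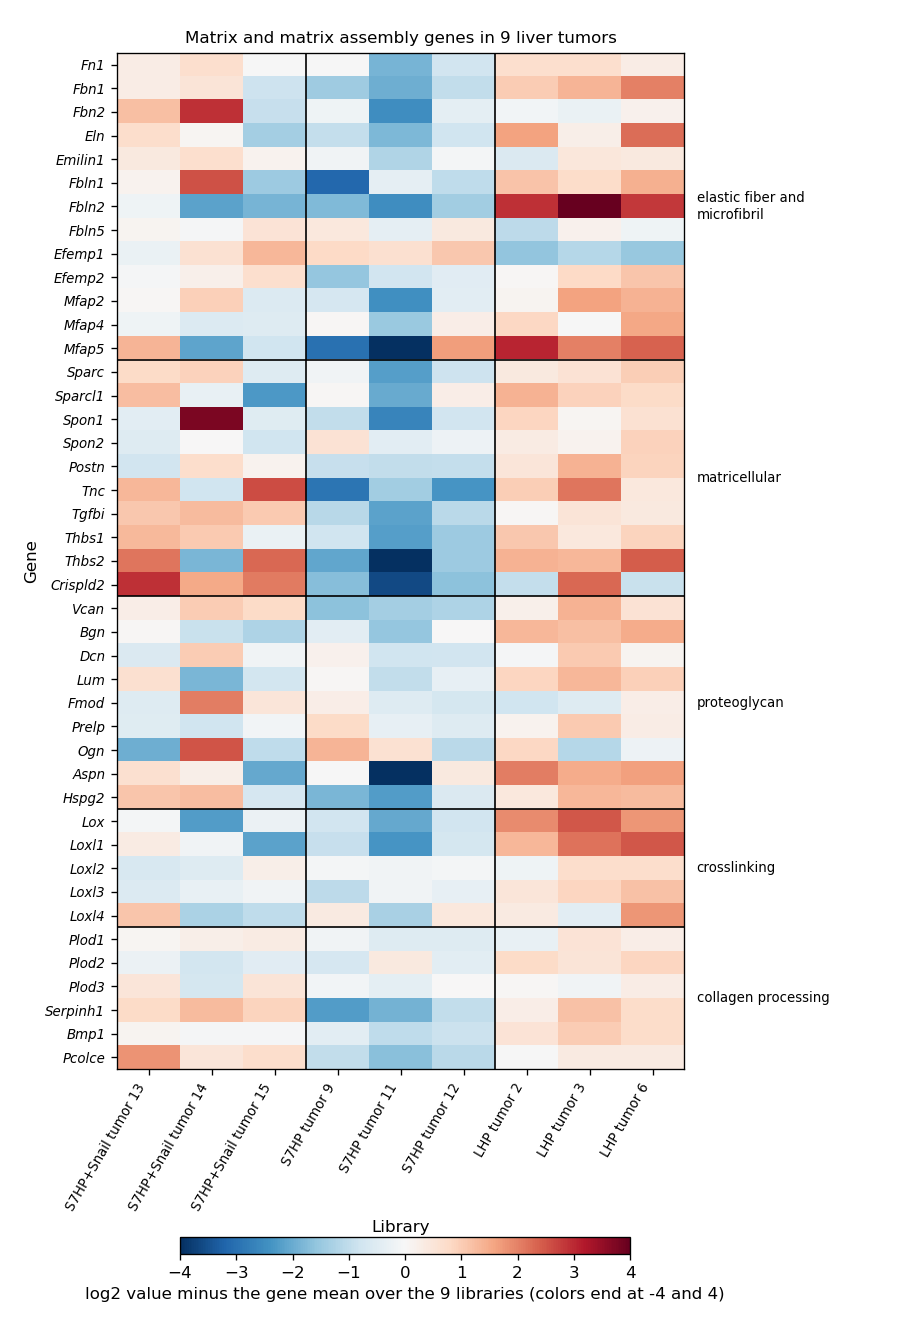
Each row is a gene and each column a library, colored by log2 value minus that gene's mean over the 9 libraries (color scale from -4 to 4), with roles separated by lines. Most rows are blue in the 3 S7HP columns and red in the 3 LHP columns, Lox and Fbln2 stay blue or near white in S7HP+Snail, and Efemp1 runs the other way.

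**Figure D2:**
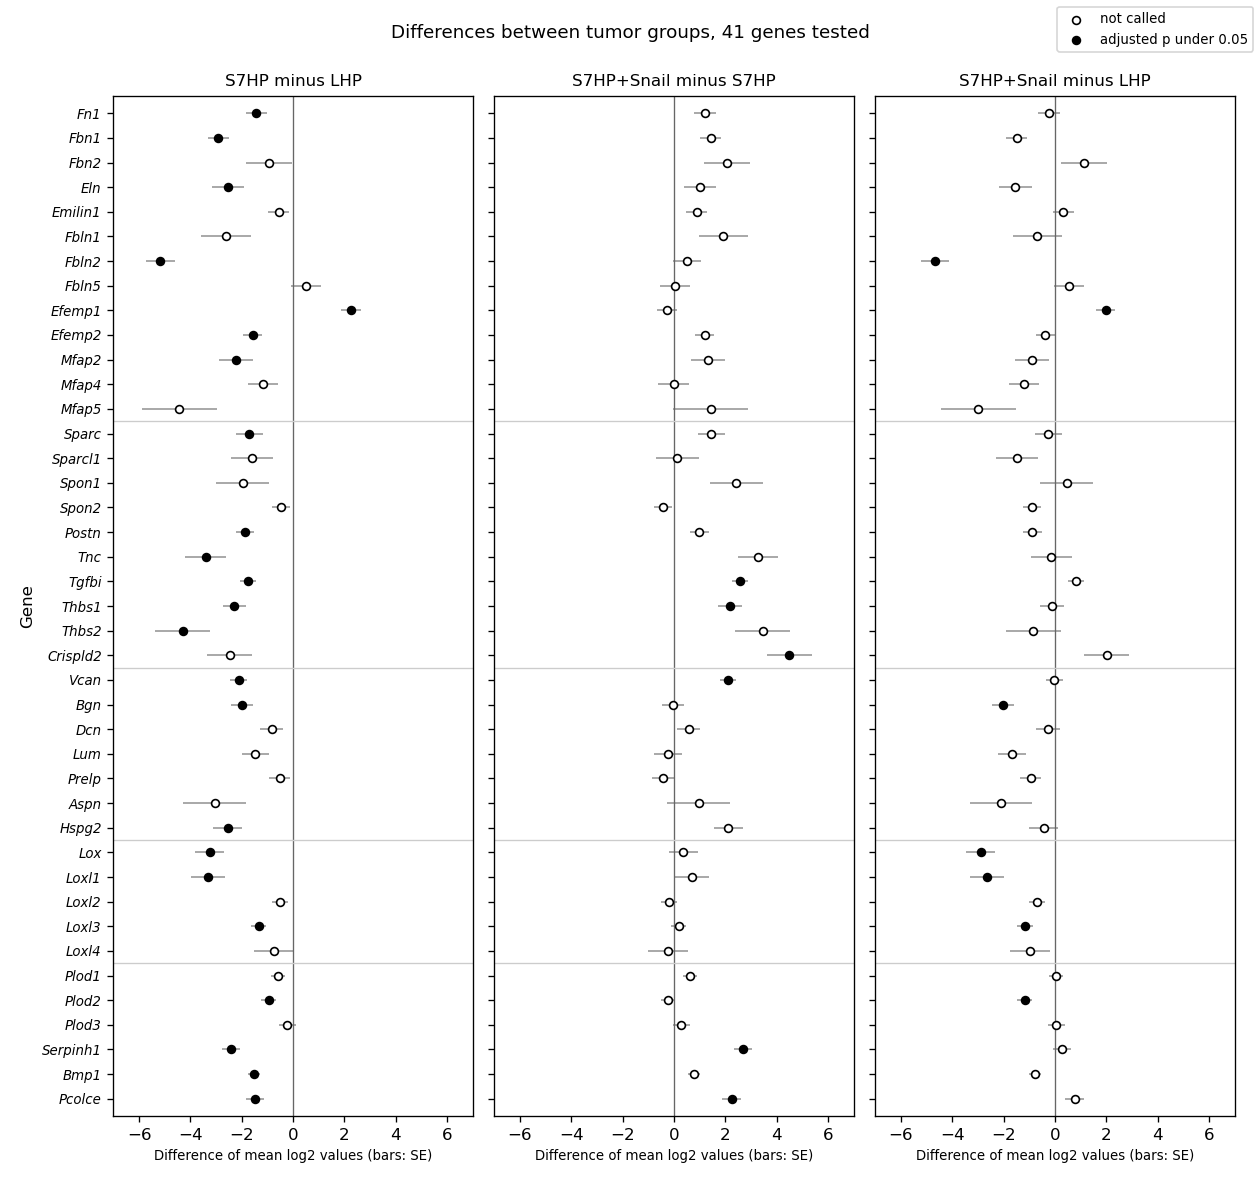
Points are differences of mean log2 values and bars are limma SE, for the 41 genes tested and the 3 comparisons; filled points have a BH adjusted p under 0.05. In S7HP minus LHP, 22 filled points lie left of 0 and 1 (Efemp1) lies right, in S7HP+Snail minus S7HP all 6 filled points lie right, and in S7HP+Snail minus LHP 6 lie left and 1 right.

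Marker lists of other cell types also differed between the groups, read against the same background shares as the matrix genes. Over all genes, 9.54% were called lower and 9.47% higher in S7HP against LHP (limma, BH adjusted p under 0.05). The shares were 1.29% lower and 1.01% higher in S7HP+Snail against S7HP, and 3.87% lower and 3.35% higher in S7HP+Snail against LHP. Of 12 stellate cell and fibroblast markers, 3 were lower and 0 higher in S7HP than LHP (Pdgfrb, Acta2 and Des), and none was at 0 in any library. Their summed level was 5212 to 5601 normalized counts in S7HP+Snail, 2341 to 4218 in S7HP and 9102 to 17576 in LHP, of which Acta2 alone made up 14.3% to 47.7%, 24.2% to 43.3% and 42.4% to 69.6%. Over the list, 10 of 12 differences of S7HP minus LHP were negative and 2 positive, with a median of -1.39. At an unadjusted p under 0.05 (limma), 6 were lower and 1 higher, against 17.2% of all genes each way. Groups did not overlap for 5 lower and 1 higher, against 21.3% and 20.9%. Not every marker followed this direction. Pdgfra had log2 values of 9.16, 11.17 and 8.73 in S7HP+Snail, 8.002, 6.38 and 7.51 in S7HP, and 7.73, 7.19 and 8.10 in LHP, so S7HP+Snail lay above both other groups. Reln, at 10.17, 8.48 and 8.99 in S7HP and 7.03, 7.61 and 7.04 in LHP, lay above LHP in S7HP, and neither gene was called. S7HP+Snail had 3 of these markers lower than LHP (Pdgfrb, Acta2 and Cygb). These calls were lost without tumor 3, 6 or 14, and those of Pdgfrb and Cygb also without tumor 15, that of Cygb without tumor 2 and that of Acta2 without tumor 11 or 12. The S7HP call of Des was lost on dropping any single LHP or S7HP library.

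Endothelial markers summed to 8322 to 11148, 4134 to 6665 and 6399 to 7002 in S7HP+Snail, S7HP and LHP, with 2 of 12 lower in S7HP than LHP (Plvap and Tie1). Tie1 was near the floor in S7HP, at log2 values of 2.12, 2.64 and 2.92. With Snail, 1 of 12 was called higher than in S7HP (Plvap), 8 were higher at an unadjusted p under 0.05, 6 did not overlap and lay above S7HP, and the median log2 difference was 1.11. Over all genes, 1.01% were called higher, 8.53% were higher at an unadjusted p under 0.05 and 9.53% lay wholly above S7HP. Dropping any single LHP or S7HP library, or tumor 13 or 14, ended the S7HP call of Tie1 and the Snail call of Plvap. Relative to LHP, 1 endothelial marker was higher in S7HP+Snail (Egfl7), a call lost on dropping any single LHP or S7HP+Snail library. Hepatocyte markers ran the other way, with 5 of 10 higher in S7HP than LHP (Hnf4a, Alb, Apob, Serpina1a and Apoa1) and sums of 87111 to 194306, 106316 to 355136 and 28964 to 52095 in S7HP+Snail, S7HP and LHP. The Apoa1 call was lost without tumor 2, 3, 6, 9 or 11, and the Serpina1a call without tumor 2 or 3. S7HP+Snail had 2 of 10 higher than LHP (Alb, lost without any single LHP tumor, and Hnf4a, lost without LHP tumor 2 or 6).

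Macrophage and Kupffer markers summed to 5944 to 12366, 4234 to 7101 and 8289 to 12951 in S7HP+Snail, S7HP and LHP, and 1 of 12 was called lower in S7HP than LHP (Marco), 8.33%, near the 9.54% of all genes. Only the called count was near the background. At an unadjusted p under 0.05 (limma), 4 of 12 were lower and 0 higher, against 17.2% of all genes each way. Groups did not overlap for 4 lower and 0 higher, against 21.3% and 20.9%. The median log2 difference was -0.89, with 11 differences negative and 1 positive. Of 6 biliary markers, 1 was called lower in S7HP than LHP (Sox9, lost without tumor 2, 3 or 11) and 0 were called higher. At an unadjusted p under 0.05, 1 was higher (limma), against 17.2% of all genes. Krt7, Krt19 and Epcam lay wholly above LHP in S7HP without being called, where 20.9% of all genes lay wholly above. The list's median log2 difference was 1.74. The biliary sums, 26897 to 332435, 52071 to 144356 and 95725 to 184803 in S7HP+Snail, S7HP and LHP, were mostly Spp1, which held 81.9% to 96.4% of them. Of 6 mesothelial markers 0 were called by limma in any comparison, with 0 at an unadjusted p under 0.05, and Upk3b was at 0 in most libraries. The part of these markers in the matrix differences was not tested. In bulk tumors, fewer cells of a type and less RNA per cell cannot be told apart.

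As a share of each library's normalized counts, the 43 genes made up 1.89%, 2.38% and 1.53% in S7HP+Snail, 1.26%, 0.437% and 0.846% in S7HP, and 2.23%, 2.52% and 2.05% in LHP. Fn1 supplied most of that, and without it the other 42 genes made up 0.534% to 0.774% in S7HP+Snail, 0.159% to 0.262% in S7HP and 0.62% to 0.915% in LHP. S7HP tumors lay below both other groups on each measure. The role sums parted in the S7HP+Snail tumors. Collagen processing genes held 0.225% to 0.290% of counts in S7HP+Snail, 0.0487% to 0.0813% in S7HP and 0.185% to 0.297% in LHP. Crosslinking genes held 0.00971% to 0.0188% in S7HP+Snail, 0.0098% to 0.0148% in S7HP and 0.0536% to 0.0825% in LHP. Collagen processing shares in S7HP+Snail overlapped those of LHP, and crosslinking shares in S7HP+Snail overlapped those of S7HP. Each sum mainly follows its highest gene. Serpinh1 led collagen processing, with mean log2 values of 15.38 in S7HP+Snail and 15.11 in LHP, against 11.68 and 12.87 for Plod2, the next. Lox led crosslinking in LHP, at 13.13 against 10.63 for Loxl1. Not all genes of a role moved alike, and Plod2 was lower in S7HP+Snail than LHP. These sums are descriptions and were not tested.

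**Figure D3:**
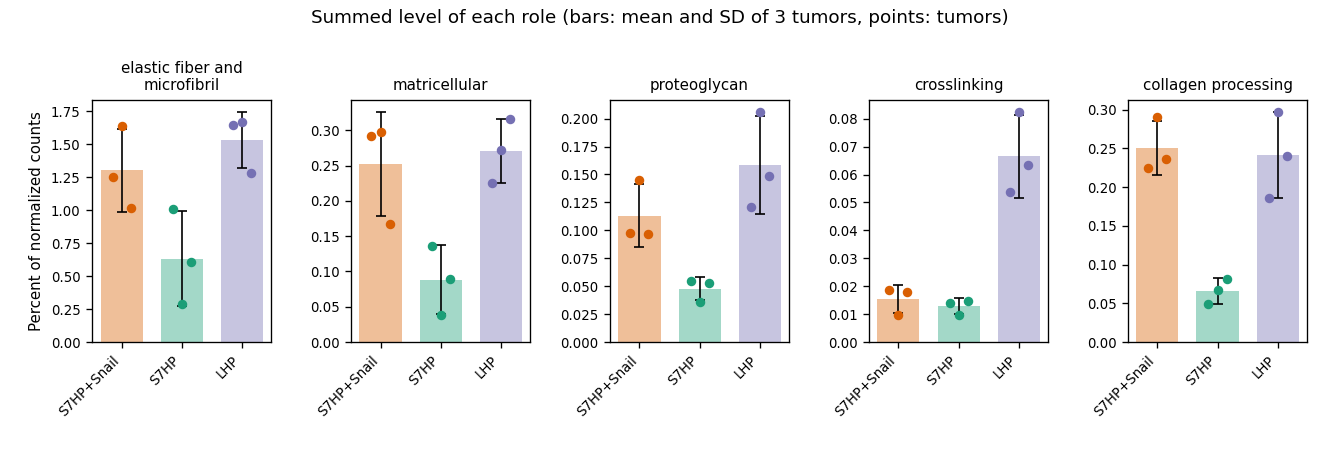
Bars are mean percent of normalized counts (error bars: SD, 3 tumors a group) for the genes of each role, and points are tumors. Crosslinking genes reach 0.0188% at most in S7HP+Snail and 0.0148% in S7HP, below the lowest LHP tumor at 0.0536%, while collagen processing genes in S7HP+Snail span 0.225% to 0.290%, inside the LHP range.

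Lox, Loxl1 and Loxl3 were lower in both Smad7 groups than in LHP. Of the 5 lysyl oxidases, 3 were lower in S7HP than LHP and the same 3 were lower in S7HP+Snail than LHP, and 0 were called between S7HP+Snail and S7HP by limma, with 0 at an unadjusted p under 0.05. The shares of all genes called lower than in LHP were 9.54% for S7HP and 3.87% for S7HP+Snail. Between S7HP+Snail and S7HP, 2.3% of all genes were called, and 9.29% were lower and 8.53% higher at an unadjusted p under 0.05. Lox, which oxidizes lysines of collagen and elastin to start crosslinking, had log2 values of 11.02, 8.86 and 10.84 in S7HP+Snail, 10.31, 9.05 and 10.31 in S7HP, and 12.98, 13.56 and 12.86 in LHP. Each LHP tumor was above every other tumor, by almost 2 log2 units at the nearest. Lox was 9.47-fold lower in S7HP and 7.42-fold lower in S7HP+Snail, relative to LHP (log2 differences -3.24 ± 0.56 and -2.89 ± 0.56, SE; limma, BH adjusted p = 0.00583 and 0.0188). The difference between S7HP+Snail and S7HP was 0.35 ± 0.56 (limma, BH adjusted p = 0.789).

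Loxl1, an elastin-directed paralog needed for elastic fiber upkeep (GRCm38 chromosome 9, 58287738 to 58313186), had log2 values of 8.97, 8.49 and 6.48 in S7HP+Snail, 7.70, 6.26 and 7.92 in S7HP, and 9.95, 10.81 and 11.11 in LHP. It was 10.1-fold lower in S7HP than LHP and 6.26-fold lower in S7HP+Snail than LHP (log2 differences -3.33 ± 0.66 and -2.65 ± 0.66, SE; limma, BH adjusted p = 0.00925 and 0.0446). Neither Smad7 group overlapped LHP. Loxl3, another paralog (GRCm38 chromosome 6, 83034173 to 83052562), had values of 8.08, 8.32 and 8.49 in S7HP+Snail, 7.58, 8.47 and 8.31 in S7HP, and 9.10, 9.50 and 9.80 in LHP, with differences of -1.35 ± 0.30 in S7HP and -1.17 ± 0.30 in S7HP+Snail relative to LHP (limma, BH adjusted p = 0.014 and 0.0466). The groups were again apart, though by under 1 log2 unit at the nearest tumors. Relative to LHP, the S7HP+Snail call of Lox was lost without any 1 LHP tumor, that of Loxl1 without tumor 2, 3, 6, 9, 12 or 15, and that of Loxl3 without any 1 tumor except S7HP tumor 9. The S7HP call of Loxl3 was lost without LHP tumor 3 or 6.

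Loxl2 and Loxl4, the other 2 paralogs, were not called in any comparison. Loxl2 had log2 values of 9.41, 9.55 and 10.30 in S7HP+Snail, 9.97, 9.90 and 9.97 in S7HP, and 9.88, 10.76 and 10.75 in LHP, so its S7HP tumors spanned less than 0.1 and overlapped LHP. Loxl4 had means of 6.22 ± 1.30 in S7HP+Snail, 6.44 ± 0.98 in S7HP and 7.18 ± 1.11 in LHP (SD, n = 3 each).

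Of 6 collagen processing genes, 4 were lower in S7HP than LHP, 2 were higher in S7HP+Snail than S7HP and 1 was lower in S7HP+Snail than LHP. Of all genes, 9.54%, 1.01% and 3.87% were called in these directions. Serpinh1, also called Hsp47, the collagen-specific chaperone of the endoplasmic reticulum (GRCm38 chromosome 7, 99345376 to 99353239), had log2 values of 15.18, 15.67 and 15.30 in S7HP+Snail, 12.17, 12.50 and 13.42 in S7HP, and 14.66, 15.56 and 15.12 in LHP. All S7HP tumors lay below all others, and S7HP+Snail overlapped LHP. Serpinh1 was 5.35-fold lower in S7HP than LHP (-2.42 ± 0.35, SE) and 6.44-fold higher in S7HP+Snail than S7HP (2.69 ± 0.35), with limma BH adjusted p = 0.00247 and 0.00708. Both calls held in all 16 alternatives run. S7HP+Snail minus LHP was 0.27 ± 0.35 (limma, BH adjusted p = 0.673).

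Pcolce, which enhances cleavage of the procollagen C-propeptide (GRCm38 chromosome 5, 137605103 to 137613784), had log2 values of 10.17, 8.87 and 9.06 in S7HP+Snail, 7.40, 6.69 and 7.29 in S7HP, and 8.36, 8.73 and 8.74 in LHP. The 3 groups did not overlap, with S7HP lowest and S7HP+Snail highest. It was 4.72-fold higher in S7HP+Snail than S7HP and 2.79-fold lower in S7HP than LHP (log2 differences 2.24 ± 0.37 and -1.48 ± 0.37, SE; limma, BH adjusted p = 0.0178 and 0.0211). The first call was lost without S7HP tumor 11 or 12, and the second without tumor 3, 6 or 11. S7HP+Snail minus LHP was 0.76 ± 0.37 and was not called (limma, BH adjusted p = 0.231).

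Bmp1, the protease that removes that propeptide and also processes pro-lysyl oxidase (GRCm38 chromosome 14, 70474558 to 70520234), had log2 values of 10.35, 10.19 and 10.20 in S7HP+Snail, 9.83, 9.23 and 9.38 in S7HP, and 10.78, 11.27 and 10.99 in LHP. The groups were ordered without overlap, S7HP lowest, S7HP+Snail between and LHP highest. S7HP was 2.9-fold below LHP (-1.54 ± 0.23, SE; limma, BH adjusted p = 0.00275), a call kept in all 16 alternatives, while S7HP+Snail minus S7HP, 0.77 ± 0.23, and S7HP+Snail minus LHP, -0.77 ± 0.23, were not called (limma, BH adjusted p = 0.115 and 0.073).

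Of the 3 lysyl hydroxylases, which hydroxylate the lysines later used in crosslinks, Plod2 was called relative to LHP in both Smad7 groups, and in S7HP+Snail it was the only collagen processing gene called relative to LHP. Plod2, the form that acts on telopeptides (GRCm38 chromosome 9, 92542223 to 92608428), had log2 values of 11.91, 11.43 and 11.69 in S7HP+Snail, 11.49, 12.53 and 11.72 in S7HP, and 12.93, 12.67 and 13.000 in LHP. Both Smad7 groups lay below LHP, by 1.93-fold in S7HP and 2.28-fold in S7HP+Snail (log2 differences -0.95 ± 0.29 and -1.19 ± 0.29, SE; limma, BH adjusted p = 0.044 and 0.0369). The S7HP call was lost without tumor 2, 3, 6, 9, 12 or 15, and the S7HP+Snail call without any single tumor except S7HP tumors 9 and 11. Plod1 and Plod3 were not called in any comparison. Plod1 means were 9.58 ± 0.13, 8.96 ± 0.22 and 9.54 ± 0.43 in S7HP+Snail, S7HP and LHP, and Plod3 means were 9.32 ± 0.69, 9.04 ± 0.21 and 9.28 ± 0.22 (SD, n = 3 each).

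Among matricellular genes, 6 of 10 were lower in S7HP than LHP, 3 of 10 were higher in S7HP+Snail than S7HP, and 0 were called between S7HP+Snail and LHP by limma, with 2 lower and 2 higher at an unadjusted p under 0.05. Of all genes, 9.54% were called lower in S7HP than LHP and 1.01% higher in S7HP+Snail than S7HP. Between S7HP+Snail and LHP, 3.87% of all genes were called lower and 3.35% higher. At an unadjusted p under 0.05 the shares there were 13% lower and 12.2% higher. Tgfbi, a secreted integrin ligand named for its induction by TGF-β (GRCm38 chromosome 13, 56609523 to 56639562), had log2 values of 10.58, 10.78 and 10.56 in S7HP+Snail, 8.40, 7.36 and 8.44 in S7HP, and 9.55, 10.03 and 9.90 in LHP. The 3 groups did not overlap, and S7HP+Snail tumors were highest and within 0.25 of each other. It was 5.95-fold higher in S7HP+Snail than S7HP and 3.38-fold lower in S7HP than LHP (log2 differences 2.57 ± 0.31 and -1.76 ± 0.31, SE; limma, BH adjusted p = 0.00517 and 0.00556), and both calls held in all 16 alternatives. S7HP+Snail minus LHP was 0.81 ± 0.31 (limma, BH adjusted p = 0.134).

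Thbs1, thrombospondin 1, which binds CD36 and CD47 and can activate latent TGF-β (GRCm38 chromosome 2, 118111876 to 118127133), had log2 values of 10.98, 10.74 and 9.42 in S7HP+Snail, 8.88, 7.47 and 8.24 in S7HP, and 10.78, 10.11 and 10.57 in LHP. S7HP tumors were below all others. Thbs1 was 4.88-fold lower in S7HP than LHP and 4.53-fold higher in S7HP+Snail than S7HP (log2 differences -2.29 ± 0.46 and 2.18 ± 0.46, SE; limma, BH adjusted p = 0.00952 and 0.043). The second call was lost without any 1 tumor except S7HP+Snail tumor 15, with an adjusted p of up to 0.143. Thbs2, its paralog (GRCm38 chromosome 17, 14665500 to 14694235), had log2 values of 10.25, 6.28 and 10.41 in S7HP+Snail, 6.03, 3.90 and 6.66 in S7HP, and 9.49, 9.44 and 10.53 in LHP, with S7HP+Snail tumor 14 near the S7HP tumors and tumors 13 and 15 near LHP. It was 19.6-fold lower in S7HP than LHP (-4.30 ± 1.07, SE; limma, BH adjusted p = 0.0226), a call lost without tumor 2, 3, 6, 9 or 11. S7HP+Snail minus S7HP, 3.45 ± 1.07, was called only without S7HP+Snail tumor 14 among the alternatives (limma, BH adjusted p = 0.128 with it and 0.012 without it).

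Tnc, tenascin C, a stress and wound matrix protein (GRCm38 chromosome 4, 63959785 to 64047015), had log2 values of 11.79, 9.68 and 13.07 in S7HP+Snail, 7.56, 9.08 and 8.11 in S7HP, and 11.47, 12.62 and 10.90 in LHP. S7HP tumors were below all others, and S7HP+Snail tumors were spread over more than 3 log2 units. Tnc was 10.6-fold lower in S7HP than LHP (-3.41 ± 0.79, SE; limma, BH adjusted p = 0.0167), a call lost without LHP tumor 3 or S7HP tumor 9, while S7HP+Snail minus S7HP was 3.26 ± 0.79 (limma, BH adjusted p = 0.0709), called without S7HP+Snail tumor 14 at 0.0109. Postn, periostin, a collagen-binding protein (GRCm38 chromosome 3, 54361109 to 54391037), had log2 values of 8.78, 10.23 and 9.67 in S7HP+Snail, 8.60, 8.56 and 8.58 in S7HP, and 10.005, 10.93 and 10.42 in LHP. The S7HP tumors agreed within 0.05 and lay below both other groups. Postn was 3.66-fold lower in S7HP than LHP (-1.87 ± 0.37, SE; limma, BH adjusted p = 0.00834), and S7HP+Snail minus S7HP was 0.98 ± 0.37 (limma, BH adjusted p = 0.2).

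Crispld2, a secreted protein with a CAP domain and LCCL domains, gave the widest rise with Snail of the 43 genes. Its log2 values (GRCm38 chromosome 8, 119992438 to 120052793) were 10.60, 9.17 and 9.74 in S7HP+Snail, 5.96, 4.08 and 6.02 in S7HP, and 6.73, 9.96 and 6.79 in LHP. S7HP+Snail lay above S7HP without overlap, and LHP tumor 3 stood more than 3 log2 units above LHP tumors 2 and 6. The difference of 4.48 ± 0.87 (SE), 22.4-fold, was called (limma, BH adjusted p = 0.034), and the call was lost without tumor 9, 11, 12, 13 or 15, at up to 0.119. Crispld2 was not called between S7HP and LHP (-2.47 ± 0.87; limma, BH adjusted p = 0.0763) or between S7HP+Snail and LHP (2.01 ± 0.87; 0.187).

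Sparc, osteonectin, a collagen-binding glycoprotein (GRCm38 chromosome 11, 55394500 to 55423183), had log2 values of 15.48, 15.64 and 14.21 in S7HP+Snail, 14.56, 12.51 and 13.90 in S7HP, and 15.10, 15.30 and 15.71 in LHP. It was 3.28-fold lower in S7HP than LHP (-1.71 ± 0.53, SE; limma, BH adjusted p = 0.0495), at the edge of the threshold, and the call was lost without tumor 2, 3, 6, 11, 12 or 13. The call was also lost with trimmed mean of M values scaling, without a filter, and without trend and robust variances. The remaining matricellular genes, Sparcl1, Spon1 and Spon2, were not called in any comparison, though Sparcl1 and Spon1 had all 3 S7HP tumors below all 3 LHP tumors. Spon1, an F-spondin with thrombospondin repeats, had values of 6.10, 10.29 and 6.04 in S7HP+Snail, 5.54, 3.90 and 5.76 in S7HP, and 7.38, 6.59 and 7.12 in LHP. Sparcl1 averaged 8.86 ± 1.76, 8.75 ± 1.26 and 10.35 ± 0.33, and Spon2 8.26 ± 0.42, 8.68 ± 0.54 and 9.15 ± 0.40, in S7HP+Snail, S7HP and LHP (SD, n = 3 each). For Spon1, S7HP+Snail tumor 14 stood more than 4 log2 units above tumors 13 and 15.

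**Figure D4:**
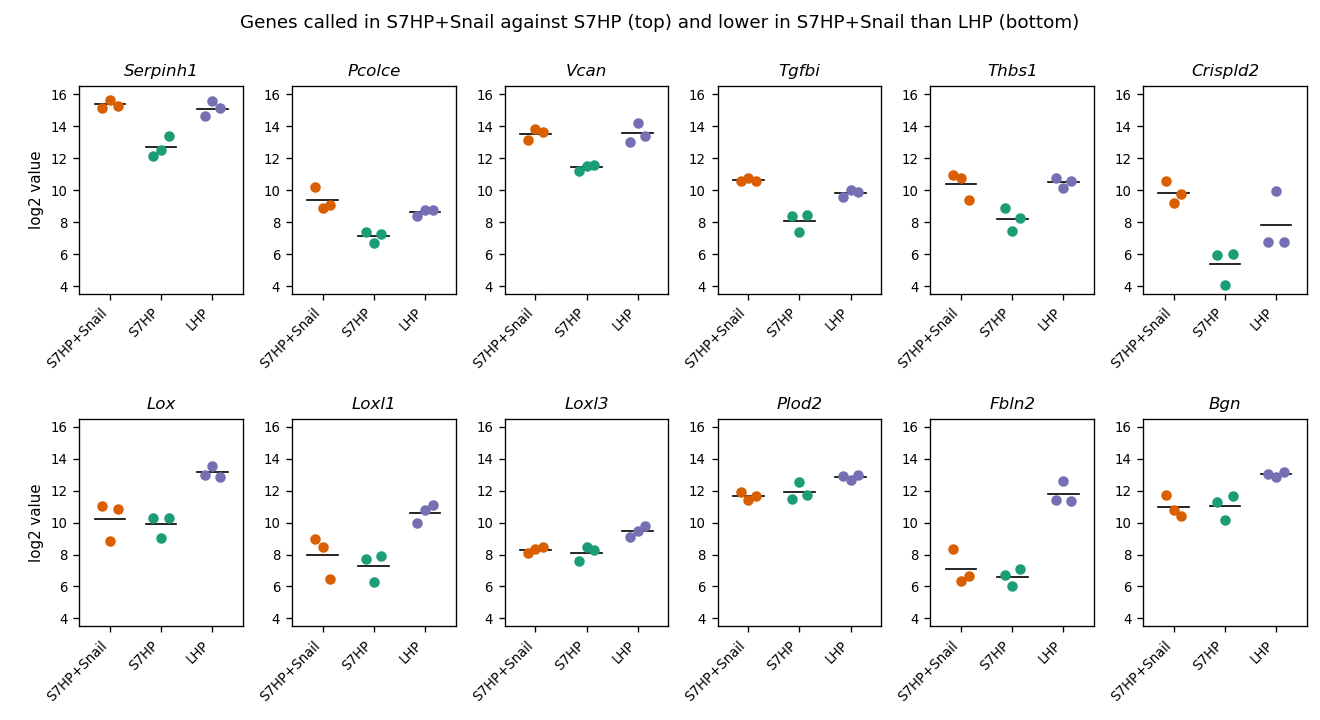
Points are log2 values of single tumors and lines are group means for the 6 genes higher in S7HP+Snail than S7HP (top row) and the 6 genes lower in S7HP+Snail than LHP (bottom row). In the top row the 3 S7HP points lie lowest, and in the bottom row both Smad7 groups lie below the 3 LHP points, as for Lox, where LHP is at 12.86 to 13.56 and no other tumor passes 11.02.

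Of the 9 proteoglycan genes, 3 were lower in S7HP than LHP, 1 was higher in S7HP+Snail than S7HP, 1 was lower in S7HP+Snail than LHP, and Fmod and Ogn were not tested. Among all genes tested, 9.54%, 1.01% and 3.87% were called in these directions. Vcan, versican, the large hyaluronan-binding proteoglycan of provisional matrix (GRCm38 chromosome 13, 89655312 to 89742509), had log2 values of 13.13, 13.86 and 13.62 in S7HP+Snail, 11.21, 11.50 and 11.61 in S7HP, and 13.04, 14.24 and 13.42 in LHP. S7HP tumors were below all others and S7HP+Snail overlapped LHP. Vcan was 4.36-fold lower in S7HP than LHP and 4.28-fold higher in S7HP+Snail than S7HP (log2 differences -2.12 ± 0.32 and 2.10 ± 0.32, SE; limma, BH adjusted p = 0.00293 and 0.014), and the second call was lost without S7HP tumor 11, at 0.0633. S7HP+Snail minus LHP was -0.03 ± 0.32 (limma, BH adjusted p = 0.965).

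Bgn, biglycan, a small leucine-rich proteoglycan that binds collagen and TGF-β (GRCm38 chromosome X, 73483602 to 73495933), had log2 values of 11.72, 10.80 and 10.44 in S7HP+Snail, 11.27, 10.14 and 11.69 in S7HP, and 13.01, 12.87 and 13.15 in LHP. LHP tumors lay above all 6 others, within 0.3 of each other. Bgn was 3.94-fold lower in S7HP and 4.07-fold lower in S7HP+Snail, relative to LHP (log2 differences -1.98 ± 0.42 and -2.03 ± 0.42, SE; limma, BH adjusted p = 0.0117 and 0.0239), and the second call was lost without any 1 LHP tumor or S7HP+Snail tumor 15. Hspg2, perlecan, the heparan sulfate proteoglycan of basement membranes (GRCm38 chromosome 4, 137468769 to 137570630), had log2 values of 11.63, 11.76 and 9.87 in S7HP+Snail, 8.69, 8.30 and 9.95 in S7HP, and 10.95, 11.84 and 11.79 in LHP. It was 5.84-fold lower in S7HP than LHP (-2.55 ± 0.57, SE; limma, BH adjusted p = 0.0141), a call lost without tumor 3, 6, 9 or 11. S7HP+Snail tumors 13 and 14 reached the LHP range and tumor 15 stayed near S7HP tumor 12. S7HP+Snail minus S7HP, 2.10 ± 0.57, was called only without S7HP+Snail tumor 15 among the alternatives (limma, BH adjusted p = 0.0903 with it and 0.0268 without it).

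Decorin and lumican, fibril-spacing proteoglycans typical of fibroblasts, did not pass the test in any comparison. Dcn had log2 values of 11.49, 13.06 and 11.90 in S7HP+Snail, 12.22, 11.26 and 11.27 in S7HP, and 12.005, 13.10 and 12.16 in LHP, and the groups overlapped. Lum had values of 9.77, 7.27 and 8.39 in S7HP+Snail, 9.16, 8.14 and 8.80 in S7HP, and 9.96, 10.46 and 10.08 in LHP, with both Smad7 groups below LHP (differences -1.47 ± 0.54 in S7HP and -1.69 ± 0.54 in S7HP+Snail; limma, BH adjusted p = 0.0875 and 0.0931). Lum was called lower in S7HP without S7HP+Snail tumor 13 or 14, and lower in S7HP+Snail without tumor 13. Aspn had values of 5.03, 4.63 and 2.35 in S7HP+Snail, 4.37, 0.00 and 4.78 in S7HP, and 6.44, 5.86 and 6.02 in LHP, with 1 S7HP tumor at 0 and all LHP tumors highest, and Prelp, which overlapped between S7HP and LHP, averaged 6.76 ± 0.34, 7.20 ± 0.70 and 7.71 ± 0.49 in S7HP+Snail, S7HP and LHP (SD, n = 3 each). Fmod and Ogn were at most at 5.19 and 4.87, both in S7HP+Snail tumor 14.

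Scaffold and elastic fiber genes gave both the deepest fall relative to LHP among the 41 genes tested (Fbln2) and the only gene called higher than in LHP (Efemp1). In S7HP relative to LHP, 6 of 13 were lower (Fn1, Fbn1, Eln, Fbln2, Efemp2 and Mfap2), 1 was higher and 6 were not called. Of all genes, 9.54% were called lower and 9.47% higher there, so the 1 higher gene, 7.69% of the role, was near the background. None was called between S7HP+Snail and S7HP by limma, with 0 lower and 4 higher at an unadjusted p under 0.05. In that comparison 1.29% of all genes were called lower and 1.01% higher, and 9.29% and 8.53% at the unadjusted threshold. Fbln2, fibulin 2, which bridges fibronectin, fibrillin and basement membrane proteins (GRCm38 chromosome 6, 91212455 to 91272540), had log2 values of 8.34, 6.37 and 6.64 in S7HP+Snail, 6.73, 6.01 and 7.12 in S7HP, and 11.44, 12.61 and 11.32 in LHP. LHP stood about 3 log2 units or more above every other tumor. Fbln2 was 36.1-fold lower in S7HP (-5.17 ± 0.56, SE) and 25.6-fold lower in S7HP+Snail (-4.68 ± 0.56), both relative to LHP (limma, BH adjusted p = 0.000739 and 0.00272). It was the only 1 of the 6 genes lower in S7HP+Snail than LHP whose call there held in all 16 alternatives. S7HP+Snail minus S7HP was 0.50 ± 0.56 (limma, BH adjusted p = 0.688).

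Efemp1, fibulin 3, a fibulin that binds Timp3 (GRCm38 chromosome 11, 28853204 to 28926743), had log2 values of 8.04, 8.92 and 9.63 in S7HP+Snail, 9.10, 8.95 and 9.38 in S7HP, and 6.73, 7.16 and 6.79 in LHP. Both Smad7 groups lay above LHP. It was 4.77-fold higher in S7HP and 3.92-fold higher in S7HP+Snail, relative to LHP (log2 differences 2.25 ± 0.38 and 1.97 ± 0.38, SE; limma, BH adjusted p = 0.0046 and 0.0168), and the second call was lost without LHP tumor 2 or 6. Its paralog Efemp2, fibulin 4, which recruits Lox to elastin (GRCm38 chromosome 19, 5473954 to 5482517), went the other way, with log2 values of 9.79, 10.04 and 10.53 in S7HP+Snail, 8.29, 9.07 and 9.40 in S7HP, and 9.89, 10.64 and 10.95 in LHP. Efemp2 was 2.98-fold lower in S7HP than LHP (-1.57 ± 0.37, SE; limma, BH adjusted p = 0.0167), a call lost without tumor 3, 6 or 9.

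Fbn1, fibrillin 1, the core of microfibrils that hold latent TGF-β (GRCm38 chromosome 2, 125300594 to 125507993), had log2 values of 9.99, 10.21 and 8.88 in S7HP+Snail, 8.29, 7.77 and 8.73 in S7HP, and 10.74, 11.06 and 11.74 in LHP. The 3 groups were ordered without overlap, with S7HP lowest and LHP highest. Fbn1 was 7.56-fold lower in S7HP than LHP (-2.92 ± 0.41, SE; limma, BH adjusted p = 0.00213). S7HP+Snail minus S7HP, 1.43 ± 0.41, and S7HP+Snail minus LHP, -1.48 ± 0.41, were not called (limma, BH adjusted p = 0.103 and 0.0573), though the first was called without S7HP+Snail tumor 15 and the second without tumor 14. Eln, elastin itself (GRCm38 chromosome 5, 134702593 to 134747323), had log2 values of 7.87, 7.25 and 5.82 in S7HP+Snail, 6.21, 5.36 and 6.38 in S7HP, and 8.78, 7.40 and 9.41 in LHP, with LHP above S7HP in every pair. Its S7HP minus LHP difference of -2.55 ± 0.63 (SE; limma, BH adjusted p = 0.0218) was lost without tumor 2, 6, 9 or 11.

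Fn1, fibronectin, made by hepatocytes and by stromal cells (GRCm38 chromosome 1, 71585520 to 71653200), had log2 values of 17.91, 18.29 and 17.60 in S7HP+Snail, 17.60, 15.76 and 16.85 in S7HP, and 18.29, 18.29 and 17.91 in LHP. S7HP tumor 11 was lowest and S7HP lay below LHP, while S7HP+Snail overlapped LHP. The 2.69-fold lower level in S7HP than LHP (-1.43 ± 0.42, SE; limma, BH adjusted p = 0.041) was lost without tumor 2, 3, 6, 11, 12 or 13. Fn1 was near the top of every library, where quantile normalization gives equal ranks equal values. Its values of 18.29, 17.91 and 17.60 each recurred between libraries, so its fold and overlaps reflect rank more than measured level. Mfap2, a microfibril-associated glycoprotein, was at 6.01, 6.93 and 5.43 in S7HP+Snail, 5.31, 3.53 and 5.54 in S7HP, and 6.10, 7.59 and 7.36 in LHP. It was 4.68-fold lower in S7HP than LHP (-2.23 ± 0.66, SE; limma, BH adjusted p = 0.041), a call lost without tumor 3, 6, 9, 11 or 13. Fbn2, Emilin1, Fbln1, Fbln5, Mfap4 and Mfap5 were not called in any comparison. In S7HP+Snail, S7HP and LHP, Emilin1 averaged 7.41 ± 0.27, 6.52 ± 0.64 and 7.09 ± 0.57, Fbln5 4.44 ± 0.31, 4.40 ± 0.44 and 3.90 ± 0.64, and Mfap4 4.96 ± 0.21, 4.98 ± 0.94 and 6.16 ± 0.78 (SD, n = 3 each). Fbln1, a fibulin of blood and matrix, had values of 7.72, 10.14 and 6.14 in S7HP+Snail, 4.44, 7.22 and 6.57 in S7HP, and 8.73, 8.32 and 9.03 in LHP, with S7HP below LHP and S7HP+Snail tumor 14 above all others. Mfap5 had values of 5.92, 2.44 and 3.76 in S7HP+Snail, 1.58, 0.00 and 6.24 in S7HP, and 7.62, 6.59 and 6.91 in LHP, so its S7HP tumors ran from 0 to above 6, and all LHP tumors were higher.

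Spread within groups was wider for these genes than for most. The median SD over tumors was 0.73 in S7HP+Snail, 0.65 in S7HP and 0.45 in LHP for the 41 genes tested, against 0.45, 0.41 and 0.35 for all genes tested. S7HP tumor 11 was the lowest of its group for 33 of the 41 genes, 80.5%, against 32.3% of all genes tested. Without it, 15 genes were lower in S7HP than LHP in place of 22, and the median log2 difference was -1.41. Its summed stellate cell and fibroblast level, 2341 normalized counts, was also the lowest, against 4218 and 2974 in S7HP tumors 9 and 12. That was not particular to this list. Tumor 11 also had the lowest S7HP sums of the hepatocyte, endothelial, macrophage and Kupffer, mesothelial and biliary lists. A link between these sums and the matrix genes was not tested. S7HP+Snail tumor 14 was highest of its group for 15 of the 41 genes and lowest for 15, against 33.5% and 32.7% of all genes tested. Fbn2, the fetal fibrillin, was at 9.02, 10.75 and 6.91 in S7HP+Snail, 7.67, 5.36 and 7.44 in S7HP, and 7.72, 7.56 and 8.01 in LHP, with tumor 14 the highest of the 9.

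Promoters of Serpinh1, Tgfbi, Crispld2 and Pcolce, which were higher with Snail, and of Efemp1, higher in S7HP than LHP, are shown. These genes rose together or stood alone, and Smad and Snail proteins bind short known motifs. Each window shown holds a match to a motif named below. The window of Vcan, also higher with Snail, held none and is not shown. Sequences are RefSeq promoter windows (GRCm38.p6), cut where a GENCODE exon begins and read 5′ to 3′ on the gene's strand from 250 bases before the RefSeq start. Capitals mark matches on either strand to CAGAC (a core SMAD element, GTCTG on the other strand), CAGGTG (an E-box of the Snail type, CACCTG on the other strand) or TGANTCA (AP-1). No capital letters in these 5 windows belong to more than 1 motif. Serpinh1 (chr7:99353240-99353489, minus strand), Tgfbi (chr13:56609336-56609522, plus strand) and Crispld2 (chr8:119992188-119992437, plus strand) held core SMAD elements. Pcolce (chr5:137611488-137611654, minus strand, inside the GENCODE gene) held the E-box, and Efemp1 (chr11:28852955-28853203, plus strand) held the AP-1 match.
Serpinh1: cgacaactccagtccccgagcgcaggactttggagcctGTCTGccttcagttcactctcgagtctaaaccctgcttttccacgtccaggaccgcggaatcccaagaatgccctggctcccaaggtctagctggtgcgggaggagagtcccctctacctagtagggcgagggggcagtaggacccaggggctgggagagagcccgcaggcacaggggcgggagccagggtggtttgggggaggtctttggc
Tgfbi: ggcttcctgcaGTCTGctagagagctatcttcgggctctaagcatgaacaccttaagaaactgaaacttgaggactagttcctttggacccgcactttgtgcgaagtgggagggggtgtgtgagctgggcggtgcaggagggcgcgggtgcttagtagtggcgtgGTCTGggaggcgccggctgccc
Crispld2: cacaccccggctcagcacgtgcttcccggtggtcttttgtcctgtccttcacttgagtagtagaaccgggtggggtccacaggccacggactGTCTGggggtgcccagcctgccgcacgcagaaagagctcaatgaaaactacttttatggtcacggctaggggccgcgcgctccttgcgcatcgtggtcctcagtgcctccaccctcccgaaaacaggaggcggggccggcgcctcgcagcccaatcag
Pcolce: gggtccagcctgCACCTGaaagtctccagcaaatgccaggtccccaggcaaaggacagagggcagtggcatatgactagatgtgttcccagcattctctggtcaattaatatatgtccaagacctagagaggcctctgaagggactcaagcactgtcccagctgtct
Efemp1: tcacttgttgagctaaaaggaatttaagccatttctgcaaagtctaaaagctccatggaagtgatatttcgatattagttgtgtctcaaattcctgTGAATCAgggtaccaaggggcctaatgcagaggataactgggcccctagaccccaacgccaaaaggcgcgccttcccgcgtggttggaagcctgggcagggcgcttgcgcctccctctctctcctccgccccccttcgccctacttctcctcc
Windows were present for 26 of the 43 genes (33 windows), and those of Thbs1, Lox, Loxl1, Loxl3 and Plod2 were not among them. CAGAC was in 51.5% of the 33 windows and 42.2% of all 32851, and CAGGTG in 3.03% and 17.2%. AP-1 matches were in 3.03% and 6.75%, TEAD matches (GGAATG) in 6.06% and 12.6%, and TATA boxes (TATAAA) in 21.2% and 12.4%. The palindrome GTCTAGAC was in 0 of the 33 windows and 0.167% of all. The Vcan and Bgn windows held none of the 6 motifs. A match describes letters only and shows no binding.

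Among other matrix genes, listed for function, lower calls again outnumbered higher ones in S7HP against LHP. Of 81 listed genes found in the files, 17 were lower and 1 higher in S7HP than LHP, 1 lower and 2 higher in S7HP+Snail than S7HP, and 6 lower and 0 higher in S7HP+Snail than LHP (limma, BH adjusted p under 0.05, with 5 higher at an unadjusted p under 0.05 in the last, where 12.2% of all genes were), while 20 were too low to test. The shares over all genes were 9.54% lower and 9.47% higher, 1.29% lower and 1.01% higher, and 3.87% lower and 3.35% higher in these comparisons. With Snail added to S7HP, only the called counts were near the background. At an unadjusted p under 0.05 (limma), 2 were lower and 19 higher there, against 9.29% and 8.53% of all genes. Groups did not overlap for 3 lower and 14 higher, against 11% and 9.53%. The median log2 difference was 0.57 over the 61 genes tested and -0.02 over all genes. Has2, the hyaluronan synthase whose product versican binds, had log2 values of 6.09, 4.39 and 5.39 in S7HP+Snail, 3.43, 4.89 and 3.27 in S7HP, and 9.11, 10.60 and 9.92 in LHP. It was lower than in LHP in both, with log2 differences of -6.01 ± 0.61 (SE) for S7HP and -4.58 ± 0.61 for S7HP+Snail (limma, BH adjusted p = 0.00059 and 0.00378), with LHP far above both. Fstl1, a secreted glycoprotein related to Sparc, had values of 12.37, 12.45 and 12.01 in S7HP+Snail, 9.94, 8.96 and 10.33 in S7HP, and 12.64, 13.15 and 13.11 in LHP, and Fkbp10, a prolyl isomerase for procollagen, had 11.39, 11.22 and 11.26 in S7HP+Snail, 9.05, 9.43 and 9.60 in S7HP, and 10.75, 11.03 and 11.51 in LHP.

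For Fstl1 and Fkbp10 the S7HP tumors were below all others. Fstl1 differed by 2.53 ± 0.34 (SE) between S7HP+Snail and S7HP and -3.22 ± 0.34 between S7HP and LHP (limma, BH adjusted p = 0.0077 and 0.000659). Fkbp10 differed by 1.93 ± 0.25 and -1.74 ± 0.25 in the same comparisons (limma, BH adjusted p = 0.00619 and 0.00226). These 4 calls and those of Has2 held in all 16 alternatives. By list, 5 of 16 elastic fiber and microfibril genes were lower in S7HP than LHP, among them the latent TGF-β binding proteins Ltbp4 (-1.86), Ltbp3 (-1.70) and Ltbp1 (-1.80), and Adamtsl4 (-1.43), which binds fibrillin microfibrils. The call of Ltbp3 was lost without tumor 3, 6, 9 or 11, that of Ltbp1 without tumor 2, 3 or 11, and that of Adamtsl4 without tumor 6. Of 24 matricellular genes, 4 were lower, including Wisp1 (-3.004) and Ecm1 (-2.53), and Smoc1, a Sparc relative, was higher (2.16). Of 20 collagen processing genes, 5 were lower, including the prolyl hydroxylase subunit P4ha2 (-2.04) and the N-propeptidases Adamts2 (-1.93) and Adamts14 (-2.91), the last of which was lost without LHP tumor 3 or 6. Of 21 proteoglycan and hyaluronan genes, 3 were lower, Has2, Tsku (-1.54) and Podnl1 (-3.62), and the calls of Tsku and Podnl1 were lost on dropping any single LHP tumor or tumor 9 or 12, and that of Podnl1 also without tumor 11 or 13. This list as a whole was not shifted in S7HP against LHP. Of its 14 genes tested, 7 differences were negative and 7 positive, with a median of 0.009. At an unadjusted p under 0.05 (limma), 3 were lower and 3 higher, against 17.2% of all genes each way. The 6 genes lower in S7HP+Snail than LHP were Has2, Adamts2 (-1.65), Adamtsl4 (-1.67), Wisp1 (-2.01), Podnl1 (-4.42) and Acan. All but Has2 were lost without LHP tumor 3 or 6. Those of Wisp1, Podnl1 and Acan were also lost without tumor 2, those of Podnl1 and Acan without tumor 12, 13 or 15, and that of Acan without tumor 11 or 14.

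With Snail, Smoc1 differed in the opposite direction to Fstl1 and Fkbp10, and 17 of the 61 genes tested had a negative difference. Smoc1 was at 9.76, 9.52 and 9.01 in S7HP+Snail, 12.08, 10.75 and 10.77 in S7HP, and 9.43, 8.67 and 9.03 in LHP, with S7HP above both other groups. Its S7HP+Snail minus S7HP difference of -1.77 ± 0.39 (SE; limma, BH adjusted p = 0.0475) was lost without any 1 tumor. Acan, aggrecan, a cartilage proteoglycan, was at 0, 0 and 1.35 in S7HP+Snail, 3.72, 5.98 and 7.54 in S7HP, and 8.26, 4.60 and 3.78 in LHP. S7HP+Snail lay below both other groups, and Acan was not called against S7HP (limma, BH adjusted p = 0.0704).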

How the data were processed

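Trizol RNA of 9 liver tumors, 500 ng each, went into 3′ QuantSeq libraries, per the labels' protocols. Bowtie2, edgeR and mm10 are named, with no roles or versions, in the submitters' processing notes, and which annotation was counted is not given in the sources used here. Read from the values, the authors deposited log2 quantile-normalized counts with 1 added: 9 times the unlogged value was whole for 99.9% of values above 0 (tolerance 0.01), and library totals lay between 19910396 and 19911234, so a library's depth cannot be recovered and its precision is unknown.

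The 14215 genes that reached 4 on the log2 scale in 3 or more libraries, 41 of the 43 among them, were fitted over all 9 libraries in limma 3.58.1 (R 4.3.3), with a mean-variance trend and robust variances and 6 residual degrees of freedom. Tests were two-sided with Benjamini-Hochberg adjustment over all genes tested. Differences are of mean log2 values and understate changes of genes near 0, SE is limma's and SD is over 3 tumors. The design's fallback for raw counts did not apply. Alternatives were other filters, pseudocount, scaling (median, or a trimmed mean of M values, TMM), variance model and fitted libraries, and leaving out each library. Coordinates are GENCODE M21 on GRCm38. Older symbols were matched through RefSeq names, leaving 1 listed other matrix gene unmatched.

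The 43 genes and all lists were chosen with earlier results of these data known. Values in every tumor are given for at least 4 genes of each role with the smallest adjusted p and for genes against their role's direction, and up to 4 called genes with the smallest adjusted p are named per list of other genes and comparison. Spon1, Fbn2, Fbln1, Mfap5, Aspn, Dcn, Lum and Loxl2 were singled out after their values were seen. Figures used matplotlib 3.10.9 (Python 3.11.15).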

Additional observations from a re-analysis of the deposited data

How the results depend on the processing

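No call changed direction in any alternative, and 0 of the sign changes below involved a call. Among differences that were not called, 45 alternative values changed sign, over 12 of the 41 genes in S7HP+Snail against S7HP and 12 in S7HP+Snail against LHP. With 1 library left out, log2 differences of S7HP+Snail minus S7HP were Fbln2 -0.11 to 0.87, Fbln5 -0.21 to 0.17, Efemp1 -0.66 to 0.13, Mfap4 -0.56 to 0.30, Sparcl1 -0.72 to 1.03, Bgn -0.49 to 0.28, Lum -0.87 to 0.38, Aspn -0.57 to 1.82, Lox -0.066 to 1.04, Loxl3 -0.096 to 0.35, Loxl4 -0.96 to 0.21 and Plod2 -0.45 to 0.070, and TMM scaling gave Mfap4 0.0059. Those of S7HP+Snail minus LHP were Emilin1 -0.0073 to 0.50, Fbln1 -1.76 to 0.24, Sparc -0.52 to 0.19, Spon1 -0.96 to 1.17, Tnc -0.93 to 0.77, Thbs1 -0.41 to 0.37, Thbs2 -1.56 to 0.51, Vcan -0.29 to 0.31, Dcn -0.73 to 0.064, Hspg2 -0.78 to 0.17, Plod1 -0.20 to 0.22 and Plod3 -0.16 to 0.44. No direction can be read for these genes in these comparisons. Among other genes, the values were Ltbp1 -0.059 to 0.88, Podnl1 -1.74 to 0.11, Alb -0.66 to 0.32, Apoa1 -1.01 to 0.059, Serpina1a -0.72 to 0.23, Cygb -0.79 to 0.0046 and Sox9 -0.14 to 0.64 for S7HP+Snail minus S7HP, Mmrn2 -0.26 to 0.054, Tsku -0.47 to 0.29, Des -0.78 to 0.044 and Tie1 -0.70 to 0.27 for S7HP+Snail minus LHP, and Acan -0.69 to 1.56 for S7HP minus LHP. Of the 41 genes tested, 12 of 23 calls in S7HP against LHP, 2 of 6 in S7HP+Snail against S7HP and 1 of 7 in S7HP+Snail against LHP held in all 16 alternatives. Leaving out 1 library gave 12 to 26 lower calls and 1 to 1 higher call in S7HP against LHP (22 and 1 with all libraries), 2 to 7 higher and 0 lower in S7HP+Snail against S7HP (6 and 0), and 1 to 5 lower and 0 to 1 higher in S7HP+Snail against LHP (6 and 1). Over all genes the same ranges were 1465 to 3163, 63 to 451 and 293 to 1049, against 2702, 327 and 1026. Fitting only the 6 libraries compared gave 120 calls over all genes in S7HP+Snail against S7HP and 682 in S7HP+Snail against LHP, and without trend and robust variances the 6 genes lower in S7HP+Snail than LHP became 3. The cause was not tested. Median centring and TMM scaling moved the median difference of all genes by under 0.1 in each comparison. Quantile-normalized libraries already share nearly the same distribution, so rescaling them could change little and is no check of the normalization. Still, TMM scaling lost the S7HP call of Sparc and the Snail call of Smoc1. Losses named by tumor above are only those on leaving out a library. Without a filter, the S7HP calls of Fn1, Mfap2, Sparc and Plod2 and the Snail calls of Thbs1 and Smoc1 were among those lost. The S7HP+Snail calls of Loxl1 and Loxl3 against LHP were lost there too. Without trend and robust variances, the Snail calls of Thbs1, Crispld2 and Smoc1 were lost. The quantile normalization done before deposit could not be undone, and low values, as for Fmod, Ogn, Mfap5 and Aspn, rest on few reads. The same holds for 2 called genes of the other lists. These are Tie1 in S7HP, and Podnl1, at 1.29 in S7HP tumor 11 and 0.415 in S7HP+Snail tumor 15. No paired analysis was possible because the groups share no replicate numbers.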
